A study of Mus musculus with 12 samples.

Results

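The organ of Corti of mice without clarin-1 and clarin-2 (Clrn1-/-Clrn2-/-) was compared with that of wild-type mice at postnatal day 21 (P21), by RNA sequencing of 3 libraries per genotype. These 6 libraries were chosen by their genotype labels out of 12, and the other 6, from Clrn1-/- and Clrn2-/- mice (3 each), served to estimate the spread and to place the double mutant beside each single mutant. Clrn1-/- mice carried a constitutive deletion of exon 4 of Clrn1, made by crossing a floxed allele to the ubiquitous PGK-cre line. Clrn2-/- mice carried clarinet, a nonsense mutation of Clrn2, and crosses of both lines gave the double mutants. Wild-type mice came from breedings of their own, without littermates among the mutants, and the effects of breeding and of genotype cannot be told apart. The stria vascularis and the modiolus, which holds the cell bodies of the auditory neurons, were removed at dissection. How many animals went into a library is not given in the sources used here, so the p-values measure only the spread between these libraries, which may be technical.

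Clarins are membrane proteins with 4 transmembrane segments, found in the hair cells of the inner ear. Loss of clarin-1 underlies Usher syndrome type 3, and loss of clarin-2 causes deafness in mice and humans. The organ of Corti is an epithelium in which inner and outer hair cells stand among supporting cells. Hair cells turn the movement of their stereocilia into current through the mechanoelectrical transduction (MET) channel and release glutamate onto auditory nerve fibres. Supporting cells hold the hair cells in place, secrete matrix of the tectorial membrane and clear potassium, and tight junctions between both kinds of cell keep the endolymph apart from the fluid below.

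Libraries held 30008679 to 41049302 counts on genes. Expression is given as CPM, a gene's counts relative to all counts of its library, after TMM scaling. In the wild-type group, hair cells were represented by Myo7a at 43.4 to 51.3 CPM and by the synaptic calcium sensor Otof at 88 to 110 CPM, and supporting cells by Sox2 at 33.3 to 34.7 CPM. In the double mutant, Myo7a was at 51.1 to 52.6 CPM and Otof at 103 to 111 CPM, and neither gene passed the test (edgeR adjusted p = 0.127 and 0.385). Sox2 was higher, at 42.7 to 45.3 CPM, by a log2 fold change of 0.38 that passed the test (edgeR adjusted p = 5.77e-05) but not the fold minimum. Xist and the Y-linked Ddx3y were expressed in each of the 6 libraries, so that each held RNA of both sexes. Wild-type replicate 3 stood apart in markers of the stria vascularis. Its pigment cell marker Dct was at 12.2 CPM, against 44.6 and 60.5 CPM in the other wild-type libraries, and results on such markers are given with and without it.

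Of 19052 genes tested, the double mutant over-expressed 1120 (5.88%) and under-expressed 766 (4.02%), 1886 in all (9.9%). Calls required a change of 1.5-fold or more together with edgeR's quasi-likelihood test at an adjusted p (Benjamini-Hochberg) no higher than 0.05. By the adjusted p alone, 3632 genes were higher (19.1%) and 3415 lower (17.9%). Most calls were of modest size, with a median fold of 1.88 among over-expressed and 1.82 among under-expressed genes, and 97 and 51 genes changed at least 4-fold. The median log2 fold change of all genes was 0.001. All 3 double mutant libraries lay above or all below the 3 wild-type libraries for 48.2% of the genes tested, and for 1099 of the over-expressed and 710 of the under-expressed genes. With any single library of both genotypes left out, 764 of the over-expressed and 482 of the under-expressed genes were called each time. Among 614 lincRNA genes 45 were over-expressed and 73 under-expressed, while among 15163 protein-coding genes the numbers were 919 and 543.

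**Figure D1:**
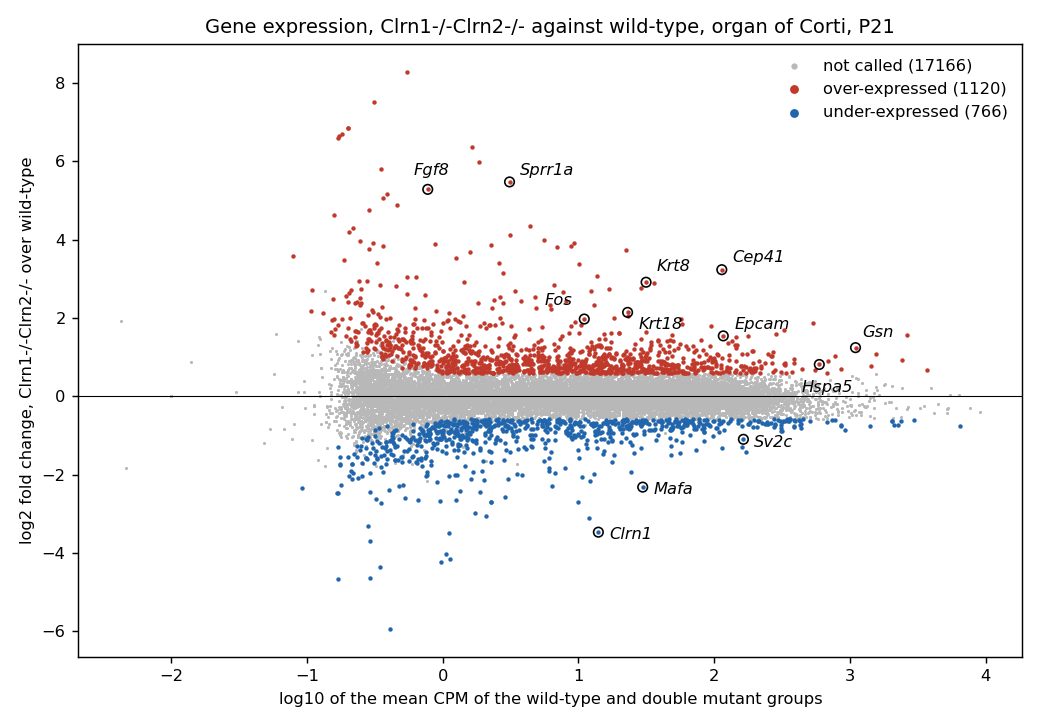
Log2 fold change of each of 19052 genes (Clrn1-/-Clrn2-/- over wild-type) against the log10 of its mean CPM. Red points are the 1120 over-expressed and blue points the 766 under-expressed genes, with 12 named genes circled. Fold changes of genes near 0 CPM in wild-type, at the upper left, depend on the prior count of the fit.

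Transcripts of the deleted and mutated genes were low in the double mutant. Clrn1, on chromosome 3, was at 25, 23.8 and 28.6 CPM in wild-type and at 1.77, 2.44 and 2.71 CPM in the double mutant. Clrn2, on chromosome 5, was at 3.03, 1.89 and 3.24 CPM in wild-type and at 1.18, 0.921 and 1.13 CPM in the double mutant. The groups did not overlap for either gene, with log2 fold changes of -3.47 (standard error, SE, 0.12) and -1.33 (SE 0.21). Clrn2 was as low in Clrn1-/- mice, which carry only the Clrn1 deletion, with a mean of 0.916 CPM (log2 fold change -1.57). Its mean in Clrn2-/- mice was 1.23 CPM (-1.15). The double mutant did not differ from Clrn1-/- mice in Clrn2 (edgeR adjusted p = 0.52), and the source of the fall was not tested.

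Besides Clrn1, the largest changes that held in each fit without 1 library and reached 1 CPM in a group came from genes of varied function. Sprr1a, a precursor of the cornified envelope of skin, was at 0.197, 0.11 and 0.101 CPM in wild-type and at 5.28, 7.22 and 5.77 CPM in the double mutant. From 15 and 628 counts this was a ratio of 45.4 (95% interval 27.3 to 81.6, counting error only). Fgf8, a growth factor of the developing organ of Corti, had 1, 0 and 3 counts in wild-type and 48, 52 and 56 in the double mutant, a ratio of 42.3 (16.2 to 157). Both genes thus went from near the limit of detection to a low but measurable level in all 3 libraries. Ifi202b had 0 counts in each wild-type library and 40, 31 and 40 counts in the double mutant, which is at least 13.5-fold higher with the wild-type group set at 3 counts per library. Other large increases included those of Ryr1, the calcium release channel of the sarcoplasmic reticulum (log2 fold change 4.35, SE 0.2), the retinol dehydrogenase Sdr16c5 (4.0), the lipoxygenase Alox15 (3.87), the lysyl oxidase Loxl4 (3.84) and Fgf21, a secreted factor known from stressed tissues (3.69). In Clrn1-/- and Clrn2-/- mice Fgf8 (log2 fold changes 4.60 and 4.61) and Ryr1 (3.86 and 3.52) were over-expressed too.

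Cep41, which encodes a centrosomal and ciliary protein, combined a large change with a high level. It was at 20, 25.8 and 20.3 CPM in wild-type and at 198, 220 and 201 CPM in the double mutant (log2 fold change 3.23, SE 0.14, edgeR adjusted p = 1.90e-10), with 91.4 CPM in Clrn1-/- and 72.7 CPM in Clrn2-/- mice. Tested directly, the double mutant was also above each single mutant (log2 fold changes 1.17 and 1.5, edgeR adjusted p = 3.49e-06 and 7.65e-07). At the other end, Ripor3 fell from 20.1, 19.8 and 25 CPM to 2.79, 1.84 and 2.91 CPM (log2 fold change -3.1). Its means were 2.27 CPM in Clrn1-/- and 6.84 CPM in Clrn2-/- mice, and the difference from Clrn1-/- mice did not pass the test (edgeR adjusted p = 0.604). Mafa, a transcription factor, fell from 46.8, 48.6 and 53.6 CPM to 9.64, 10.2 and 9.93 CPM (-2.32, SE 0.1, edgeR adjusted p = 2.71e-10). Mafa was at 18 and 19.4 CPM in the Clrn1-/- and Clrn2-/- mice, and the double mutant was below both (log2 fold changes -0.86 and -0.97, edgeR adjusted p = 1.92e-05 and 9.89e-06).

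Keratins of simple epithelia and genes of cell junctions rose together. Krt8, which pairs with Krt18 in the intermediate filaments of simple epithelia, was at 8.09, 7.18 and 6.98 CPM in wild-type and at 54.7, 56.1 and 56.2 CPM in the double mutant (log2 fold change 2.91, SE 0.066, edgeR adjusted p = 2.09e-13). Krt18 went from 8.51, 9.26 and 7.84 CPM to 38.4, 37.5 and 36.8 CPM (2.14, SE 0.069). All 3 double mutant libraries were far above all 3 wild-type libraries for both genes. In single mutants the levels were intermediate, with 14.5 and 15.2 CPM for Krt8 and 13.3 and 13.8 CPM for Krt18, and the double mutant exceeded each single mutant by 1.44 to 1.94 on the log2 scale. Krt19, a smaller keratin of the same epithelia, rose less (0.77). Of 11 keratins tested, 4 were over-expressed and 0 under-expressed, and without wild-type replicate 1, wild-type replicate 3 or double mutant replicate 1 there was 1 under-expressed keratin. The fourth, Krt90, was at most 0.393 CPM in any of the 6 libraries, and its call was lost with unstranded counts and without wild-type replicate 2 or 3 or double mutant replicate 1. Counts of the pseudogene Krt8-ps (log2 fold change 3.89) may come from reads of Krt8, from which they cannot be told apart here.

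Among 51 tested genes of cell junctions, 22 were over-expressed and 0 under-expressed (median log2 fold change 0.51). In 4 of the 6 fits without 1 library 1 gene was under-expressed (without wild-type replicate 2 or 3 or double mutant replicate 1 or 3). The sum of the list rose from between 2971 and 3085 CPM in wild-type to between 3701 and 3737 CPM. Among claudins, which form the strands of tight junctions, Cldn9 was at 70.3, 66.4 and 85.1 CPM in wild-type and at 188, 197 and 201 CPM in the double mutant (log2 fold change 1.4, SE 0.087, edgeR adjusted p = 7.80e-09). Cldn6 (2.38), Cldn7 (1.47), Cldn4 (1.23), Cldn8 (1.16) and Cldn3 (1.09) rose as well, and so did Ildr1 (1.4), a protein of junctions where 3 cells meet. None of these genes had overlapping groups. In bulk tissue, a change in the share of cells of a type and a change in the RNA per cell cannot be told apart.

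Of the 22 junction genes, 19 were called in neither single mutant, 15 were also higher than in Clrn1-/- mice, 12 also higher than in Clrn2-/- mice, and 11 higher than in both. Among all 1120 over-expressed genes, the numbers were 710, 424, 490 and 273. Genes of desmosomes were among the 11. Dsp, the plaque protein that anchors keratin filaments, was at 15.8, 14.7 and 15.5 CPM in wild-type and at 32.4, 32.6 and 33.1 CPM in the double mutant (log2 fold change 1.09, SE 0.086, edgeR adjusted p = 9.17e-08). Its means in Clrn1-/- and Clrn2-/- mice, 15.1 and 15.6 CPM, were close to that of wild-type, and the double mutant was higher than each by 1.12 and 1.07 on the log2 scale (edgeR adjusted p = 1.62e-07 and 5.88e-07). Ppl, another plaque protein, went from 16.8, 16.4 and 18.8 CPM to 32.7, 34.1 and 33.5 CPM (0.95, SE 0.071), against means of 17.1 and 19.5 CPM in the single mutants. Dsg2, a desmosomal cadherin (0.9), and Pkp3, a plakophilin (0.83), were over-expressed relative to wild-type as well. Cdh1, the cadherin of epithelial adherens junctions, differed by only 0.25 on the log2 scale, below the fold minimum.

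**Figure D2:**
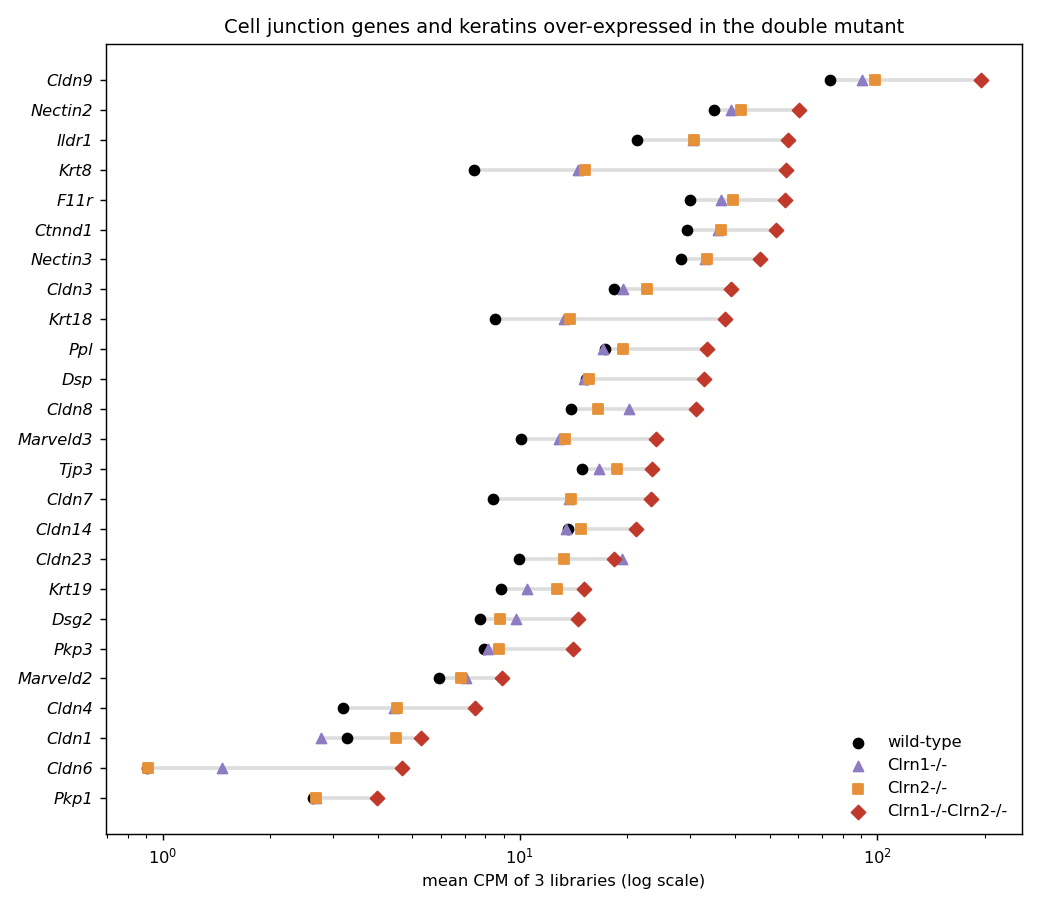
Mean CPM of 3 libraries per genotype (log axis) for the 22 cell junction genes and 3 of the 4 keratins over-expressed in the double mutant, ordered by their level there. Krt90, below 1 CPM, is not drawn. Red diamonds (double mutant) lie to the right of wild-type for every gene drawn, and right of both single mutants for every gene except Cldn23.

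Other genes of high level rose too, of which Epcam and Gsn were chosen after their values were seen. Epcam, an adhesion molecule of epithelial cells, was at 61.7, 53.2 and 64.8 CPM in wild-type and at 170, 176 and 175 CPM in the double mutant (log2 fold change 1.54, SE 0.077). Gsn, the actin-severing protein gelsolin, went from 640, 685 and 635 CPM to 1516, 1542 and 1589 CPM (1.24, SE 0.055), while its means in Clrn1-/- and Clrn2-/- mice were 734 and 858 CPM. Tm4sf1, a membrane protein whose gene lies within 5 Mb of Clrn1 on chromosome 3 and was named for that position, rose from 66, 65.3 and 70.6 CPM to 138, 144 and 144 CPM (1.08, SE 0.048). No library of either group overlapped the other for these genes.

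**Figure D3:**
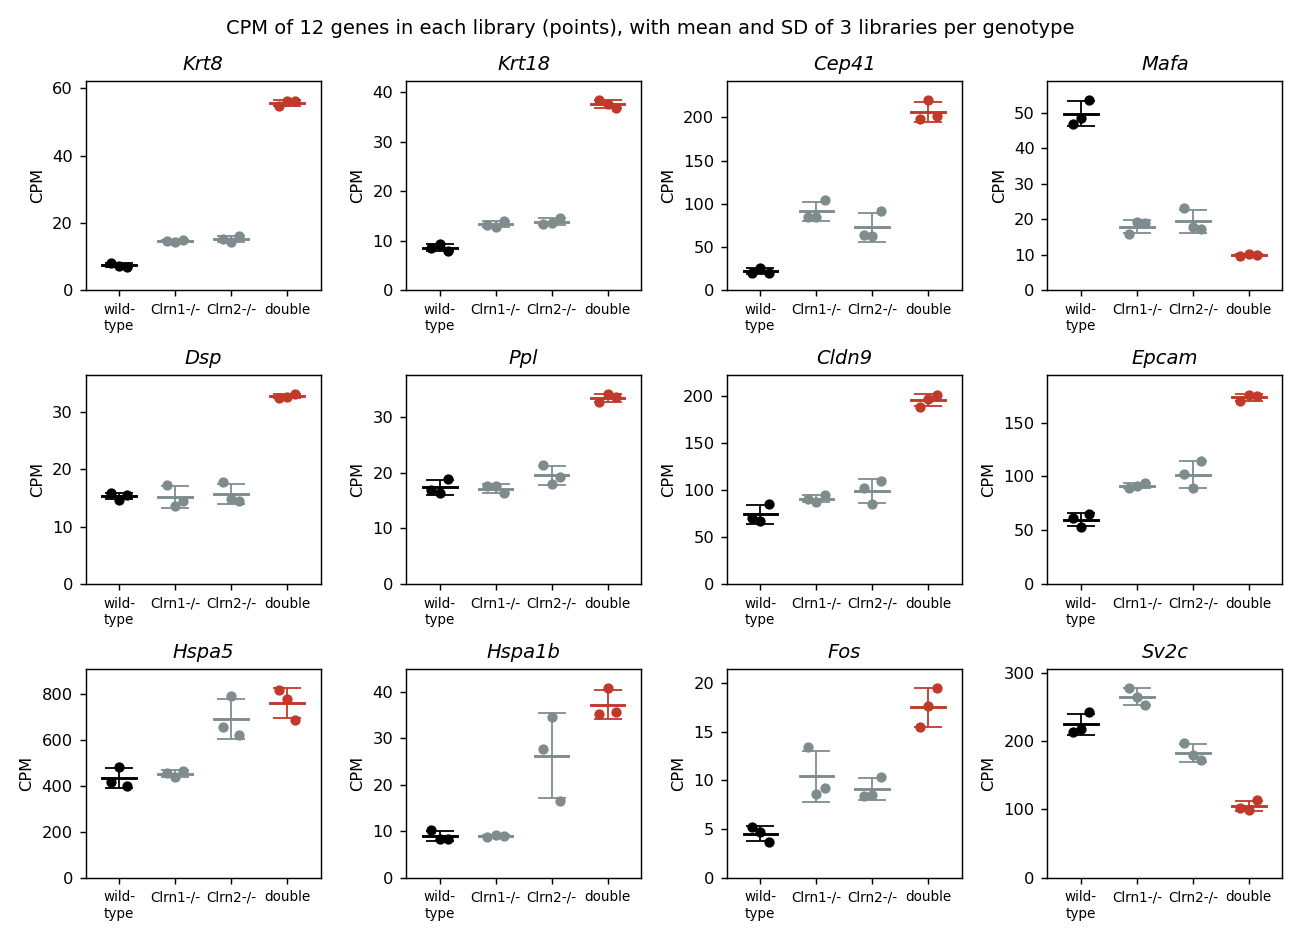
CPM of 12 genes in each of the 12 libraries (points), with the mean and SD of the 3 libraries of each genotype. Krt8, Krt18, Cep41, Dsp, Ppl, Cldn9 and Epcam are highest in the double mutant, Mafa and Sv2c lowest, and Hspa5 and Hspa1b are raised in Clrn2-/- and double mutant libraries.

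Markers of supporting cells were mostly higher. Of 40 tested, 18 were over-expressed and 1 under-expressed (median log2 fold change 0.50), and their sum rose from 4421 to 4725 CPM in wild-type to 6775 to 7220 CPM. Lgr6, a receptor for R-spondins, was at 4.33, 4.6 and 4.25 CPM in wild-type and at 19.6, 24.1 and 21.9 CPM in the double mutant (log2 fold change 2.32, SE 0.11, edgeR adjusted p = 6.05e-10). Kcnj16, a potassium channel subunit, went from 163, 133 and 173 CPM to 468, 535 and 504 CPM (1.68, SE 0.085). Both genes stood clear of wild-type in every library, and in each the double mutant was also above both single mutants. Rbp7 (1.89), a retinol-binding protein, the water channel Aqp5 (1.49), the matrix proteins Emilin2 (1.14) and Epyc (1.02), and Fgfr3 (0.94), the receptor of pillar and Deiters cell development, were over-expressed. The under-expressed marker was Prox1, a transcription factor of supporting cells that is also found in neurons, which fell from 102, 101 and 109 CPM to 56.4, 58.3 and 60.9 CPM (-0.83, SE 0.044). Of the 18 over-expressed markers, 8 were higher than in both single mutants.

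Genes of the tectorial membrane and its attachment were mostly higher as well. Of 17 genes tested, 11 were over-expressed and 1 under-expressed (median 0.65), and their sum went from 5240 to 6379 CPM in wild-type to 8444 to 9431 CPM. Most of that rise came from Ceacam16, an adhesion protein of the membrane, with means of 1348 and 3962 CPM. Otol1, otolin, a collagen-like protein known from otoconia, was at 3.2, 6.47 and 3.39 CPM in wild-type and at 27.6, 31.9 and 27.9 CPM in the double mutant (log2 fold change 2.74, SE 0.18). Otoa, which attaches the tectorial membrane to the spiral limbus, went from 138, 128 and 162 CPM to 413, 436 and 444 CPM (1.59, SE 0.079). The increases exceeded the spread between libraries, and both genes were also higher than in each single mutant. Most of the list was not. Of the 11 over-expressed genes, 4 were also called higher than in Clrn1-/- mice, 4 than in Clrn2-/- mice and 3 than in both. Tecta, the core protein of the membrane, was at 1.72 to 4.57 CPM in wild-type and 2.58 to 3.57 CPM in the double mutant, where the groups overlapped. Otos, otospiralin, a protein of fibrocytes, was the under-expressed member, at 1637, 1455 and 2205 CPM against 894, 1024 and 1181 CPM (-0.77, SE 0.15).

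**Figure D4:**
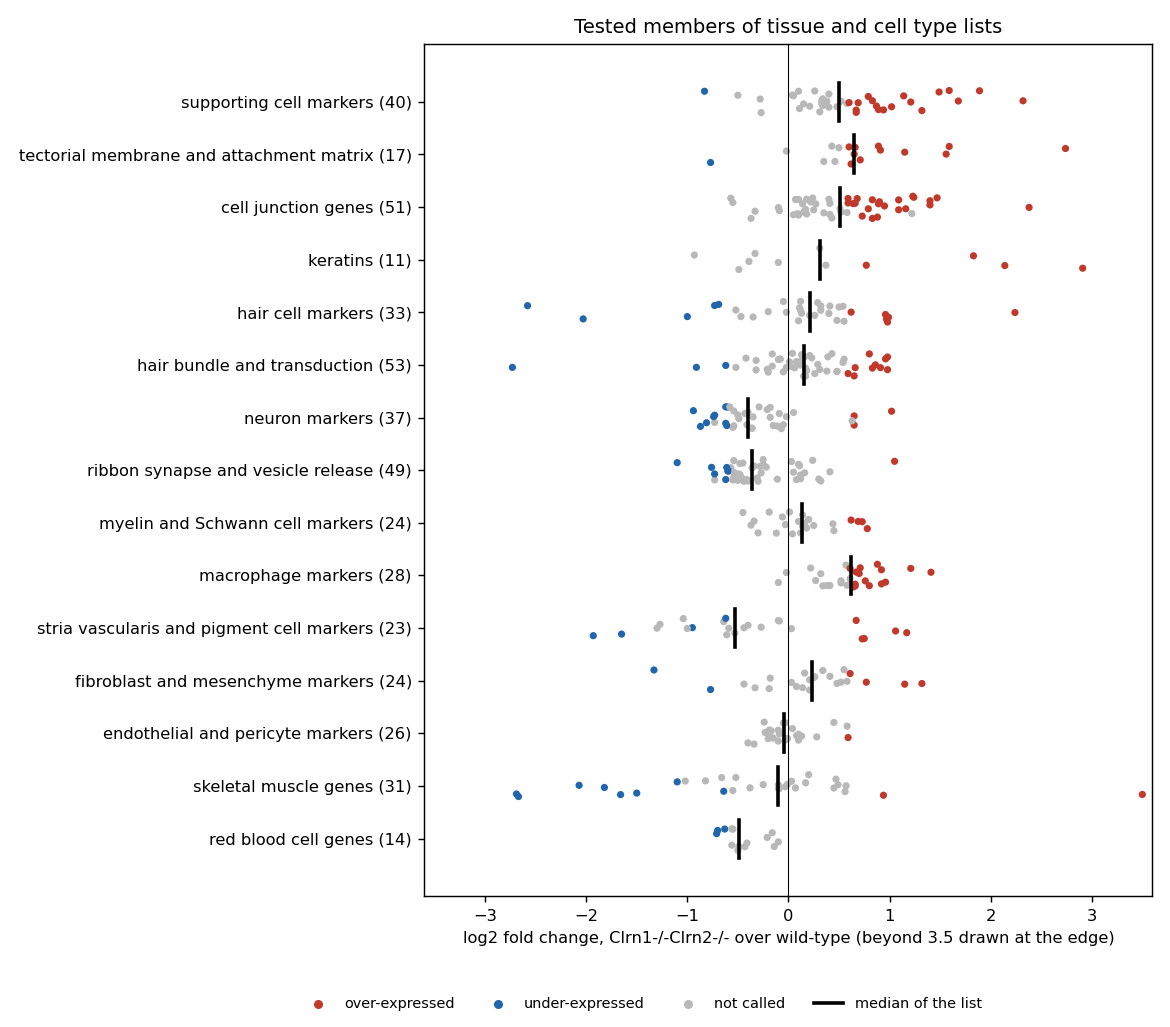
Log2 fold change (double mutant over wild-type) of each tested member of 15 lists, with the number tested in parentheses. Red points are over-expressed, blue points under-expressed and grey points not called, and the black bar is the median. Supporting cell, tectorial membrane, junction and macrophage lists lie mostly to the right of 0, neuron and ribbon synapse lists mostly to the left.

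Of 33 hair cell markers, 6 were over-expressed and 5 under-expressed (median 0.21). Genes of the hair bundle and its transduction machinery were more often higher, with 10 of 53 over-expressed and 3 under-expressed (1 without wild-type replicate 2), and 21 higher and 8 lower by the adjusted p alone (median 0.15). Tmc1, which encodes a subunit of the MET channel, was at 11, 13.4 and 12.8 CPM in wild-type and at 23.8, 26.5 and 23.2 CPM in the double mutant (log2 fold change 0.98, SE 0.11). Pcdh15, a cadherin of the tip link, went from 11.2, 11.4 and 12.2 CPM to 21.3, 24.3 and 23.4 CPM (0.98, SE 0.084), and Ptprq, a phosphatase of the stereocilia base, rose by 0.96. The groups of all 3 genes were separate. Tmc1 had means of 19.2 CPM in Clrn1-/- and 21.8 CPM in Clrn2-/- mice. Of the 10 over-expressed bundle genes, 4 were also called higher than in Clrn1-/- mice and 0 higher than in Clrn2-/- mice. Genes of outer hair cells were among those that rose. Ocm, oncomodulin, a calcium buffer of outer hair cells, was at 62.7, 62.5 and 76.2 CPM in wild-type and at 122, 138 and 133 CPM in the double mutant (log2 fold change 0.97, SE 0.12). Chrna9, a subunit of the efferent acetylcholine receptor, went from 3.85, 4.3 and 4.0 CPM to 7.87, 8.08 and 8.12 CPM (0.99, SE 0.12). Both were separate from wild-type in every library, whereas Slc26a5, the gene of the motor protein prestin, rose by 0.55, under the fold minimum. Lmod3, an actin nucleator, had the largest increase of the list, from 1.52, 1.67 and 1.9 CPM to 6.95, 7.55 and 9.62 CPM (2.24, SE 0.18).

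Lrrc52, an auxiliary subunit of BK potassium channels, fell most among the markers, from 4.92, 4.33 and 5.59 CPM to 0.82, 0.713 and 0.928 CPM (log2 fold change -2.58, SE 0.23, edgeR adjusted p = 4.20e-07). Its mean was 0.653 CPM in Clrn1-/- and 1.81 CPM in Clrn2-/- mice. Dnajc5b, a vesicle chaperone of the cysteine string family, went from 1.88, 1.81 and 1.7 CPM to 0.459, 0.386 and 0.464 CPM (-2.03, SE 0.23), and was at 0.408 CPM in Clrn1-/- and 1.43 CPM in Clrn2-/- mice. For both genes the double mutant differed from Clrn2-/- mice (edgeR adjusted p = 0.00372 and 7.39e-05), and its difference from Clrn1-/- mice did not pass the test (edgeR adjusted p = 0.417 and 0.873). Calb2, a calcium buffer of hair cells and neurons, fell from 2707, 2649 and 3062 CPM to 1577, 1756 and 1742 CPM (-0.73). The sum of the hair cell list, 4207 to 4712 CPM in wild-type and 3108 to 3359 CPM in the double mutant, is dominated by this gene.

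Several ligands of the Wnt and BMP families were higher. Of 54 Wnt pathway genes, 12 were over-expressed and 0 under-expressed (median 0.34), with 3 under-expressed without wild-type replicate 3. Wnt7b, a ligand, was at 21.5, 16.9 and 24.2 CPM in wild-type and at 55.3, 57.9 and 55.2 CPM in the double mutant (log2 fold change 1.43, SE 0.1), and was higher than in each single mutant (edgeR adjusted p = 2.34e-06 and 5.51e-06). Its relative Wnt7a (1.01) and the secreted antagonist Sfrp1 (0.98) also rose. In the TGF-beta and BMP pathway 9 of 60 genes were over-expressed and 3 under-expressed. Gdf6, a BMP-type ligand, went from 25.8, 24.5 and 25.4 CPM to 82.7, 103 and 87.5 CPM (1.85, SE 0.14), and Bmp6 from 104, 105 and 96.5 CPM to 217, 220 and 213 CPM (1.09, SE 0.047). These ligands were separate from wild-type in every library. The activin subunit Inhbb was lower, at 3.12, 3.97 and 3.31 CPM against 1.54, 1.22 and 0.567 CPM (-1.67, SE 0.27). Of 29 Notch pathway genes, 3 were over-expressed and 0 under-expressed, near the share of all genes. They were the transcription factor Heyl (0.91), the glycosyltransferase Lfng (0.87) and the receptor Notch1 (0.75).

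Ephrin ligands, neurotrophic factors and purinergic receptors were among the increases as well. Efna3 (log2 fold change 1.78) and Efna1 (0.94) encode ephrin-A ligands of axon guidance, a list in which 7 of 68 genes were over-expressed and 6 under-expressed (3 with libraries scaled by size alone). Calls made up 19.1% of that list, beside 9.9% of all genes. Bdnf, which supports auditory neurons, was at 5.82, 5.83 and 7.06 CPM in wild-type and at 11.4, 12.8 and 11.8 CPM in the double mutant (0.94, SE 0.095), and Gdnf at 2.08, 2.52 and 1.64 CPM against 3.9, 3.83 and 4.51 CPM (0.98, SE 0.16). Nrg1, neuregulin-1, a ligand of neurons for glial cells, was lower, at 92.3, 92.0 and 86.3 CPM against 50.1, 53.1 and 56.2 CPM (-0.76, SE 0.048). P2rx2, the ATP-gated channel of hair cells and supporting cells, went from 85.8, 81.9 and 105 CPM to 257, 282 and 257 CPM (1.54, SE 0.091, edgeR adjusted p = 4.29e-09). Its means in Clrn1-/- and Clrn2-/- mice were 119 and 124 CPM, and the double mutant exceeded both (edgeR adjusted p = 1.76e-07 and 6.29e-07). In the list of 23 purinergic genes, 5 were over-expressed and 1 was under-expressed, and the latter was 0 without double mutant replicate 2 or 3.

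Immediate-early genes, whose transcription follows a stimulus within minutes, were higher as a group. Of 35 tested, 15 were over-expressed and 0 under-expressed (median log2 fold change 0.53), and 24 were higher and 1 lower by the adjusted p alone. Fos was at 5.2, 4.68 and 3.67 CPM in wild-type and at 15.5, 17.6 and 19.5 CPM in the double mutant (1.97, SE 0.16, edgeR adjusted p = 1.75e-07). Fosb (3.15), Socs3 (1.23), Egr1 (1.08) and Junb (0.91) rose too, and Fosl1 went from 0, 4 and 1 counts to 20, 18 and 33, a ratio of 15.4 (95% interval 6.3 to 48.9), a call that was lost with unstranded counts. Of the 15 genes, 11 were called in neither single mutant, and 4 were higher than in both, shares not far from the 710 and 273 of all 1120 over-expressed genes. The groups of Fos and Egr1 did not overlap.

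Chaperones of the endoplasmic reticulum, which fold secreted and membrane proteins, shifted by small amounts in a common direction. Of 28 tested, 6 were over-expressed and 0 under-expressed, and by the adjusted p alone 24 were higher and 0 lower (median log2 fold change 0.34). Hspa5, the chaperone BiP, was at 415, 483 and 400 CPM in wild-type and at 815, 777 and 685 CPM in the double mutant (0.81, SE 0.088, edgeR adjusted p = 2.73e-06). Derl3, of the machinery that exports misfolded proteins, went from 2.84, 3.81 and 3.21 CPM to 7.38, 8.35 and 7.84 CPM (1.26, SE 0.12), and Sdf2l1, a cofactor of BiP, from 19.2, 19.6 and 18.6 CPM to 45.2, 38.1 and 31.7 CPM (1.0, SE 0.11). All 3 genes were separate from wild-type in every library. Creld2 (0.67) and Manf (0.68), secreted and resident factors of the same compartment, lost their calls without double mutant replicate 1, in which both were highest. The 6 over-expressed genes were also higher than in Clrn1-/- mice, and 0 of the 6 were called against Clrn2-/- mice, where Hspa5 had a mean of 689 CPM, against 451 CPM in Clrn1-/- mice.

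Several of these promoters carry the element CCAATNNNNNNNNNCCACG, the binding site of ATF6 with NF-Y that is known from the unfolded protein response. It was searched on both strands in RefSeq promoter windows of GRCm38.p6, from 250 bases before to 50 bases after a gene's start, and no other motif was searched. It occurs in 39 of all 32851 windows (0.119%), and in windows of 10 of the 24 chaperone genes that matched a window by symbol. Its carriers include Hspa5, Creld2 and Derl3, which were over-expressed, and Pdia6 (0.57), Dnajc3 (0.53), Calr (0.36), Hsp90b1 (0.34), Syvn1 (0.11), Ero1lb (0.08) and Canx (0.07), which were not called. The 3 over-expressed carriers are shown, each on the plus strand, with the element in capitals. The windows are chr2:34771840-34772139 for Hspa5, chr15:88819396-88819695 for Creld2 and chr10:75893148-75893447 for Derl3. The element lies in the reverse direction in Creld2 and Derl3. A match describes these letters alone, and Pdia4 and Sdf2l1, both over-expressed, have no match in their windows.
Hspa5: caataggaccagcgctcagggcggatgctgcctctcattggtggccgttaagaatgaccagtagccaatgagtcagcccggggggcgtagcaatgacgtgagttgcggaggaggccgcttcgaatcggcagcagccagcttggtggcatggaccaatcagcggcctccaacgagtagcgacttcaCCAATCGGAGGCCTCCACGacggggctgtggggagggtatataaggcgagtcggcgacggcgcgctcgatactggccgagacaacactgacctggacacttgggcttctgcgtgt
Creld2: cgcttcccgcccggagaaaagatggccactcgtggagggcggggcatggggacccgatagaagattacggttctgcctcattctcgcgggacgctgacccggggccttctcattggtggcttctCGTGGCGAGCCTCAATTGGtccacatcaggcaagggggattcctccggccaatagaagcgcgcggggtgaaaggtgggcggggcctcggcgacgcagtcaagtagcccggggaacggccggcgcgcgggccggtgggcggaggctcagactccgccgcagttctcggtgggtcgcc
Derl3: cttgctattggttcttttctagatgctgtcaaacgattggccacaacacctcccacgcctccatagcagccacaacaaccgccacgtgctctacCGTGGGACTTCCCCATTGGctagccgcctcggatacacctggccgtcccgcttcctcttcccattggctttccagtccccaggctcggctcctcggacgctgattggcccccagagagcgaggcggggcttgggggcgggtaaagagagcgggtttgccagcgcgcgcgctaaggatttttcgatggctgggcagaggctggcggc

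Of heat shock protein genes outside the endoplasmic reticulum, 3 were looked at after their values were seen. Hspa1b was at 10.2, 8.33 and 8.25 CPM in wild-type and at 35.2, 40.9 and 35.7 CPM in the double mutant (log2 fold change 2.06, SE 0.19, edgeR adjusted p = 3.86e-07), with means of 9.01 CPM in Clrn1-/- and 26.3 CPM in Clrn2-/- mice. Hspa1a, its near-identical neighbour, with which reads may be shared, went from 11, 10.1 and 7.89 CPM to 24.6, 23.7 and 26.9 CPM (1.38, SE 0.16). The wild-type and double mutant libraries did not overlap for these neighbours. Dnajb1, a co-chaperone, was not called (0.22, edgeR adjusted p = 0.0898), with means of 64.2 CPM in wild-type, 74.9 CPM in the double mutant and 82.9 CPM in Clrn2-/- mice. Of 45 genes of the amino acid and integrated stress response, 6 were over-expressed (13.3%) and 0 under-expressed, beside 5.88% and 4.02% of all genes. Among the 6 were Atf3 (1.99), a transcription factor induced by many stresses, Gdf15 (1.32), a secreted stress factor, and Chac1 (1.03), which degrades glutathione. Atf3 was at 7.47, 6.25 and 8.35 CPM in wild-type and at 29.9, 28.1 and 29.9 CPM in the double mutant. Its means were 10.3 CPM in Clrn1-/- and 20.1 CPM in Clrn2-/- mice. Chac1 and Fgf21, of the same list, were lower in the double mutant (means of 7 and 2.95 CPM) than in Clrn2-/- mice (10.7 and 5.87 CPM), with log2 fold changes of -0.61 and -1.0 (edgeR adjusted p = 0.00371 and 0.00558).

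In the BCL2 family, which controls the release of cytochrome c in apoptosis, 6 of 22 genes were over-expressed and 0 under-expressed (median 0.27). Of the 6, 5 encode proapoptotic BH3-only proteins, namely Bcl2l11 (log2 fold change 0.93), Hrk (0.96), Pmaip1 (1.22), Bbc3 (0.73) and Bik (0.68), and the sixth was Bcl2l14 (1.39). Bcl2l11, also known as Bim, was at 20.1, 20.2 and 20.2 CPM in wild-type and at 40.8, 37.2 and 37.6 CPM in the double mutant (SE 0.05, edgeR adjusted p = 1.90e-09). Its means of 35.0 CPM in Clrn1-/- and 32.4 CPM in Clrn2-/- mice were also above wild-type and were called. Bax and Bcl2, family members through which these proteins act, differed by 0.08 and 0.16 on the log2 scale, below the fold minimum.

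**Figure D5:**
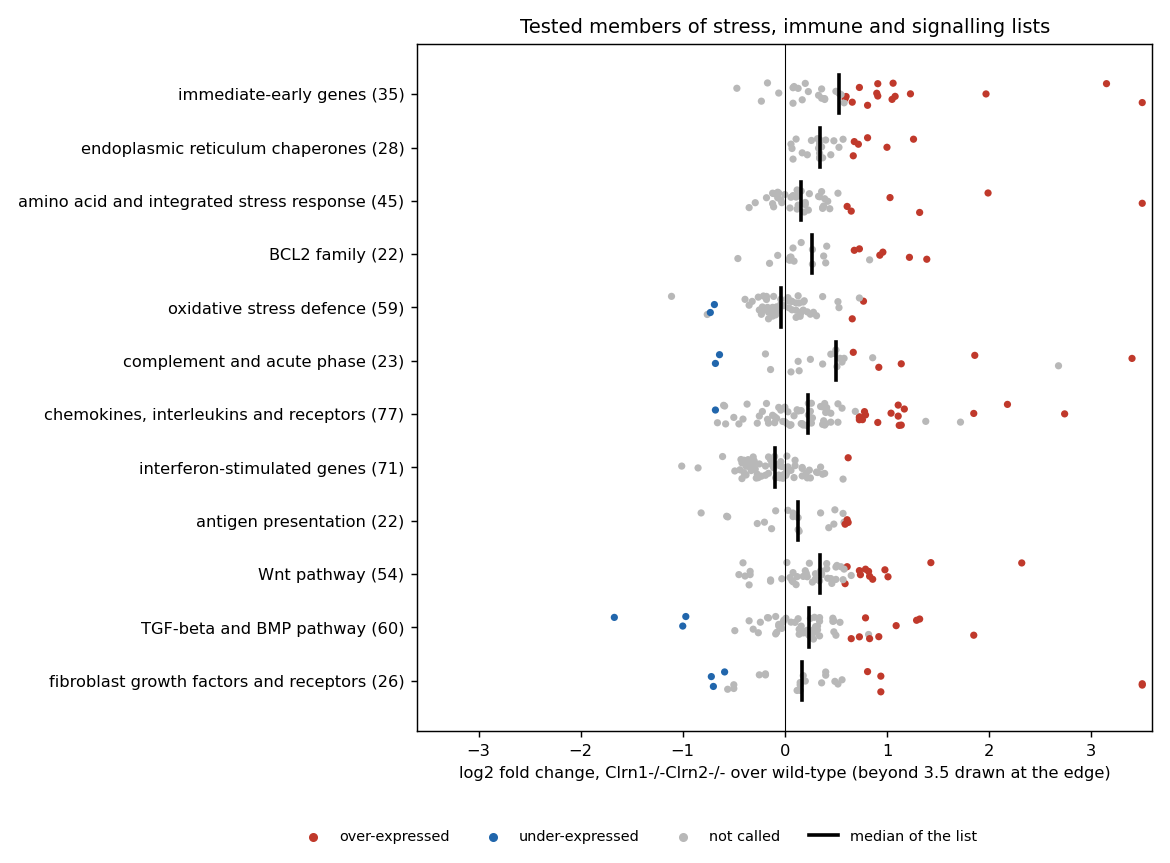
Log2 fold change (double mutant over wild-type) of each tested member of 12 lists of stress, immune and signalling genes, drawn as in the plot of tissue and cell type lists. Immediate-early genes and endoplasmic reticulum chaperones lie mostly to the right of 0, interferon-stimulated genes on both sides of it.

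Macrophage markers were mostly higher. Of 28 tested, 15 were over-expressed (10 to 18 with 1 library left out) and 0 under-expressed (median 0.62). By the adjusted p alone, 22 were higher and 0 lower. Their sum went from 383 to 466 CPM in wild-type to 583 to 659 CPM. Lyz2, lysozyme, was at 29.8, 27.9 and 24 CPM in wild-type and at 79.5, 68.9 and 69.1 CPM in the double mutant (log2 fold change 1.41, SE 0.08, edgeR adjusted p = 2.91e-09). Cd68, a lysosomal protein of phagocytes, went from 6.43, 5.42 and 5.36 CPM to 11.2, 10.9 and 10.5 CPM (0.92, SE 0.11), and Aif1 (0.96), Lyve1 (1.21) and Trem2 (0.76) rose as well. Both Lyz2 and Cd68 were separate from wild-type. Lyz2 had a mean of 63.2 CPM in Clrn1-/- and 35.8 CPM in Clrn2-/- mice, and Cd68 of 6.74 and 5.71 CPM. The pan-leukocyte gene Ptprc was at 3.57 to 6.21 CPM in wild-type and 6.03 to 6.85 CPM in the double mutant, where it was not called (edgeR adjusted p = 0.0769), and Cx3cr1 differed by 0.41, below the fold minimum.

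Inflammatory mediators changed at low levels. Of 77 genes of chemokines, interleukins and their receptors, 16 were over-expressed and 1 under-expressed, and 2 were under-expressed without double mutant replicate 1. Lif, a cytokine of the interleukin-6 family, was at 0.225, 0.219 and 0.506 CPM in wild-type and at 1.48, 1.22 and 1.7 CPM in the double mutant (log2 fold change 2.18, SE 0.38), and was higher than in each single mutant (edgeR adjusted p = 0.009 and 0.012). The chemokines Ccl2 and Ccl7, which attract monocytes, rose from 15 to 51 counts and from 7 to 45 counts over the 3 libraries, ratios of 3.69 (95% interval 2.04 to 7.06) and 6.97 (3.12 to 18.3). The acute phase gene Saa1 had 6 counts in wild-type and 62 in the double mutant, a ratio of 11.2 (4.87 to 31.7), and Serpina3n rose by 1.86 on the log2 scale. Complement and acute phase genes numbered 5 over-expressed and 2 under-expressed of 23, with 8 over-expressed without wild-type replicate 1 and 1 under-expressed without wild-type replicate 1 or 2 or double mutant replicate 2 or 3. Interferon-stimulated genes did not share the change, with 1 of 71 over-expressed and 0 under-expressed (median -0.10), and the over-expressed count was 0 without wild-type replicate 3 or double mutant replicate 1 and 2 without wild-type replicate 1 or double mutant replicate 3. Without wild-type replicate 3, 5 of these genes were under-expressed, and without double mutant replicate 2, 1.

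Neuron markers were lower, although the modiolus had been removed, and the fibres and any remaining cell bodies cannot be told apart as the source. Of 37 tested, 9 were under-expressed and 3 over-expressed (median log2 fold change -0.40), and by the adjusted p alone 25 were lower and 3 higher. With libraries scaled by size alone, 5 were under-expressed. Their sum fell from between 18982 and 20896 CPM in wild-type to between 13619 and 13986 CPM. Snap25, a vesicle fusion protein, was at 2528, 2537 and 2801 CPM in wild-type and at 1576, 1571 and 1611 CPM in the double mutant (-0.73, SE 0.056, edgeR adjusted p = 7.39e-08). Slc17a6, a vesicular glutamate transporter, went from 153, 153 and 155 CPM to 80.2, 86.1 and 85.5 CPM (-0.87, SE 0.046), and Ina, a neurofilament protein, from 390, 374 and 401 CPM to 228, 236 and 235 CPM (-0.74, SE 0.06). Their groups did not overlap. Prph, peripherin, a marker of type II auditory neurons, was higher, at 6.15, 3.01 and 4.96 CPM against 9.41, 10.0 and 9.2 CPM (1.02, SE 0.17). Of 24 myelin and Schwann cell markers, 4 were over-expressed (16.7%, beside 5.88% of all genes) and 0 under-expressed. Their sum overlapped between the groups (24682 to 25846 CPM in wild-type, 23792 to 25441 CPM in the double mutant).

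Synaptic vesicle genes were mostly lower, by small amounts. Of 49 genes of the ribbon synapse and vesicle release, 7 were under-expressed and 1 over-expressed (median -0.36), with 3 under-expressed with library size alone. By the adjusted p alone, 33 were lower and 7 higher. The over-expressed gene, Syt10, was at most 1.01 CPM in any library of either group and lost its call without wild-type replicate 1 or 3 or double mutant replicate 2 or 3. Sv2c was unusual in its order, with 213, 218 and 242 CPM in wild-type, 102, 99.7 and 113 CPM in the double mutant and a mean of 265 CPM in Clrn1-/- mice. Against Clrn1-/- and Clrn2-/- mice its log2 fold changes in the double mutant were -1.34 and -0.8 (edgeR adjusted p = 1.47e-09 and 5.88e-07).

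Potassium channels were the ion channel family with the most calls. Of 82 genes tested, 18 were under-expressed and 11 over-expressed, the latter 7 without wild-type replicate 3. Kcnip3, a calcium-binding partner of Kv4 channels, was at 26.5, 28.2 and 26.7 CPM in wild-type and at 10.6, 9.39 and 8.84 CPM in the double mutant (log2 fold change -1.5, SE 0.082, edgeR adjusted p = 2.10e-09), below both single mutants (edgeR adjusted p = 1.57e-05 and 1.05e-05). The Kv4 subunit Kcnd2 went from 8.4, 7.97 and 7.87 CPM to 3.44, 2.88 and 3.33 CPM (-1.33, SE 0.1), and the leak channel Kcnk10 from 8.54, 8.49 and 10.1 CPM to 3.57, 2.67 and 2.89 CPM (-1.58, SE 0.13). Groups were separate for all 3. Kcnc1, the Kv3 channel of fast-spiking neurons (-0.81), and the voltage-gated sodium channel Scn8a (-0.73) were lower too. Subunits of the epithelial sodium channel went the other way, with log2 fold changes of 0.79 for Scnn1a, 0.82 for Scnn1b and 0.86 for Scnn1g.

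Genes named for skeletal muscle were split. Of 31 tested, 8 were under-expressed and 2 over-expressed. Ttn, titin, was at 18.3, 17.8 and 15.8 CPM in wild-type and at 2.46, 2.7 and 2.81 CPM in the double mutant (log2 fold change -2.69, SE 0.11, edgeR adjusted p = 8.88e-11). Tcap, the titin cap protein, went from 12, 17.4 and 22.4 CPM to 4.33, 3.83 and 4.23 CPM (-2.07, SE 0.2), and Pygm, the muscle glycogen phosphorylase, from 74.6, 72.3 and 67.4 CPM to 27.5, 25 and 23.2 CPM (-1.5, SE 0.07). Ryr1 rose from 0.309, 0.52 and 0.405 CPM to 7.77, 8.62 and 9.02 CPM, and was, with Casq1 (0.94), a calcium buffer of the same compartment, 1 of the 2 that rose. Among structural genes of muscle fibres, Acta1 was at most 0.983 CPM, Ckm at most 0.416 CPM and Myh1 at most 0.384 CPM in the 6 libraries, and none of these 3 was called. Others of this kind were under-expressed, namely the myosin heavy chain Myh8, at 1.1, 3.01 and 0.835 CPM against 0.492, 0.0892 and 0.206 CPM (-2.67, edgeR adjusted p = 0.00105), and the light chain Myl1, at 8.68, 8.85 and 10.9 CPM against 3.08, 2.65 and 2.4 CPM (-1.82). The part of muscle tissue in these differences was not tested. Cox8b, a muscle-type subunit of cytochrome c oxidase (-2.16), and Perm1, a regulator of muscle mitochondria (-2.7), were among the largest decreases as well.

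Matrix, vessel and stria genes gave smaller or less stable differences. Of 35 collagens outside the tectorial membrane, 9 were over-expressed and 0 under-expressed (2 without wild-type replicate 3), with Col6a6 (log2 fold change 1.92), Col13a1 (0.82) and Col3a1 (0.77) among them. Fbp2 (2.69), a gluconeogenic enzyme, and Hk2 (0.77), a hexokinase, rose, while the list of glycolysis and glucose transport leaned down. Of its 41 genes, 5 were called in each direction, but 24 were lower and 7 higher by the adjusted p alone (median -0.22), and the sum fell from between 9359 and 9971 CPM to between 7646 and 7792 CPM. Endothelial and pericyte markers numbered 1 over-expressed of 26, the transporter Mfsd2a at the fold minimum, and there were 0 such calls without wild-type replicate 1 or double mutant replicate 2 or 3, and 2 without double mutant replicate 1. Of 23 stria vascularis and pigment cell markers, 5 were over-expressed and 4 under-expressed. The under-expressed count was 9 without wild-type replicate 3, 2 without double mutant replicate 1, and 1 without wild-type replicate 1 or 2 or double mutant replicate 2, and the over-expressed count was 3 without wild-type replicate 3. The red blood cell list had 0 over-expressed and 3 under-expressed genes of 14, with 9 without wild-type replicate 3, 6 without double mutant replicate 1 and 1 without wild-type replicate 1.

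Single mutants were compared with the same wild-type libraries, so the values of the 3 mutants against them are not independent. At the same thresholds 7.22% of genes were called in Clrn1-/- and 2.66% in Clrn2-/- mice. Of the 1120 over-expressed genes of the double mutant, 220 were also over-expressed in Clrn1-/- mice alone, 65 in Clrn2-/- mice alone, 125 in both and 710 in neither. Of the 766 under-expressed genes, the numbers were 139, 59, 109 and 459. Being called in neither single mutant does not show a difference from them, which was tested directly. In that test 7.23% of all genes differed from Clrn1-/- and 5.1% from Clrn2-/- mice, in either direction, and 273 over-expressed genes were also higher than in each single mutant, and 55 under-expressed genes also lower than in each. Sprr1a, Ly6g6c, Sdr16c5, Alox15 and Loxl4 were among the largest such increases. Loxl4 was at 1.29, 1.4 and 0.784 CPM in wild-type, at 13.6, 18.6 and 17.1 CPM in the double mutant, and at means of 3.58 and 3.37 CPM in Clrn1-/- and Clrn2-/- mice. Among the decreases were Mafa, Kcnip3, Kcnk10 and Lsmem1, the last at 5.03, 4.38 and 5.34 CPM against 1.08, 1.25 and 1.06 CPM, with means of 1.74 and 1.78 CPM in the single mutants. For each of these genes the double mutant libraries lay outside the range of wild-type.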

How the data were processed

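RNA of the dissected organ of Corti (poly-A selected, strand-specific, paired reads of 100 bases) was measured in 12 libraries. The authors deposited raw counts per gene, made with STAR on GRCm38.p6 and the Gencode M24 annotation. The version of STAR is not given in the sources used here. Counts of the reverse strand (95.23 to 95.55% of those on either strand) were used, without the 4 totals of unassigned reads (13.5 to 15.8% of reads). Of 55348 genes, 19052 passed filterByExpr (minimum count 10). Gene types and positions were taken by symbol from Gencode M21, in which 331 of the genes tested had no single match. edgeR 4.0.16 fitted 1 quasi-likelihood model to all 12 libraries with genotype as the only term, TMM scaling and Benjamini-Hochberg adjustment. SEs were derived from the fold change and the F statistic. Alternatives were limma 3.58.1 (voom, the study's own test), DESeq2 1.42.0, library size alone, no filter, the 2 genotypes alone, a replicate block, unstranded counts, no fold minimum and each library left out.

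Members and lists were chosen with earlier results of these data known. Named genes were both clarins, the 15 largest stable changes in each direction with at least 1 CPM in a group, up to 4 called members of each list per direction, the 8 largest that also differed from both single mutants, up to 5 near each clarin gene, and genes in the study's text. Chosen after their values were seen were Cldn3, Cldn4, Cldn8, Cldn23, Dsp, Ppl, Dsg2, Pkp3, Cdh1, Epcam, Gsn, Aqp5, Emilin2, Epyc, Tecta, Slc26a5, Egr1, Junb, Creld2, Manf, Hspa1a, Hspa1b, Dnajb1, Bbc3, Bax, Bcl2, Trem2, Ptprc, Cx3cr1, Kcnd2, Scnn1a, Acta1, Ckm, Myh1, the uncalled chaperones and the markers of tissue and sex. Some genes are not reported here. Intervals and floors cover counting error only.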

Additional observations from a re-analysis of the deposited data

Results flagged for a closer look

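Of all genes, 15 over-expressed and 5 under-expressed in the double mutant were called in the opposite direction in Clrn1-/- mice. Among the genes named by rule there were 3, and for these the direct test between both genotypes in edgeR was passed too. Myl1, a myosin light chain of fast muscle, was at 8.68, 8.85 and 10.9 CPM in wild-type, at 3.08, 2.65 and 2.4 CPM in the double mutant and at a mean of 39.7 CPM in Clrn1-/- mice, a log2 difference between both mutants of -3.88 (adjusted p = 5.16e-12). Cckar, a cholecystokinin receptor, was at 3.29, 2.88 and 2.58 CPM in wild-type, at 1.61, 1.69 and 1.44 CPM in the double mutant and at a mean of 4.61 CPM in Clrn1-/- mice (-1.55, adjusted p = 9.54e-07). Cfi, complement factor I, was at 2.42, 1.94 and 2.3 CPM in wild-type, at 4.23, 4.25 and 4.12 CPM in the double mutant and at a mean of 0.646 CPM in Clrn1-/- mice (2.68, adjusted p = 7.02e-08).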

How the results depend on the processing

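Over-expressed genes numbered 1120 and under-expressed genes 766 in the double mutant against wild-type, and by limma-voom, DESeq2, library size alone, no filter, the 2 genotypes alone and unstranded counts they ranged from 1020 to 1265 and from 654 to 930. With 1 library left out they ranged from 1008 to 1134 and from 687 to 907. Without a fold minimum they were 3632 and 3415, and 5783 genes were called against Clrn1-/- and 5258 against Clrn2-/- mice, in place of 1378 and 972. The last 2 counts ranged from 1232 to 1444 and from 785 to 1014 with 1 library left out. The replicate block gave 1122 over-expressed and 755 under-expressed genes, 1369 against Clrn1-/- and 937 against Clrn2-/- mice. Same-numbered wild-type and double mutant libraries had correlated deviations of 0.255, -0.277 and 0.301 over 12453 genes, so the numbers were not taken to pair them. Library size alone raised the median log2 fold change of all genes from 0.001 to 0.042. Of 255 named genes that were called, 214 were called with each library left out. No named result reversed under these alternatives. Depth limits genes below about 1 CPM.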

Other observations

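Some genes were furthest from wild-type in Clrn1-/- mice, with the double mutant in between. The ribosomal protein gene Rpl29 was at 111, 112 and 109 CPM in wild-type and at 52.4, 68.4 and 83.2 CPM in the double mutant, with means of 7.62 CPM in Clrn1-/- and 118 CPM in Clrn2-/- mice, and its call was lost without double mutant replicate 1. The pseudogene Rps3a3, which may share reads with its parent gene, was at 1.21, 1.04 and 1.16 CPM in wild-type and at 19.9, 17.8 and 14.2 CPM in the double mutant, with means of 80.2 and 0.893 CPM. The chemokine Ccl27a went from 18.6, 19.2 and 19.3 CPM to 12.5, 12.3 and 10.9 CPM, with means of 1.01 and 18.7 CPM.

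By position, 16.4% of 55 genes within 5 Mb of Clrn1 on chromosome 3 were called in the double mutant, 14% of 57 genes at 5 to 10 Mb, 15.6% of 45 genes at 10 to 20 Mb, 14% of 400 genes at 20 to 40 Mb and 9.77% of 440 genes farther away. Around Clrn2 on chromosome 5 the shares over the same distances were 7.69% of 39, 17.9% of 67, 13.1% of 160, 10.8% of 204 and 8.32% of 793 genes. No difference between these shares was tested.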
